A study of Drosophila melanogaster with 3 samples.

Results

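Of the 30000 regions that the authors called on their pooled ChIP-seq libraries for the CG13775 protein, 683 had their summit within 500 bp of the start of a noncoding RNA (ncRNA) gene and no protein-coding start within the same distance. The summit is the base of highest signal within a called region, and starts are the transcript 5′ ends of the Ensembl annotation. The libraries came from whole Drosophila melanogaster embryos of both sexes, 0 to 24 h old, of a line in which CG13775 is fused at its C-terminal end to green fluorescent protein (GFP). Chromatin was precipitated with an antibody to GFP, so every group described here shares the tagged protein, and each library averages over all embryonic tissues and stages. The promoter that drives the tagged gene is not given in the sources used here. The 3 biological replicates, numbered 1, 2 and 4, form a single group. A control named in the records was not analysed here. The 683 regions are set against 9120 regions with a coding start within 500 bp, 20079 regions with no annotated start within 500 bp, and the whole pooled list. Another 363 regions lay at both an ncRNA start and a coding start and were not counted among the 683.

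Noncoding RNA genes produce transcripts that act without being translated. Long noncoding RNAs (lncRNAs) and antisense RNAs (asRNAs, transcribed from the strand opposite to another gene) are mostly made by RNA polymerase II from promoters of their own, whereas microRNAs (miRNAs) are cut from longer primary transcripts. An annotated miRNA entry therefore marks the end of a hairpin, or of a mature arm within it, and not the place where its transcription begins. Well-studied members of these classes in the fly include roX1, which takes part in dosage compensation of the X chromosome, Hsromega, a heat-inducible nuclear RNA, and flam, the source of small RNAs that silence transposons in the ovary.

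The DNA under the summits at ncRNA starts was searched for short promoter words. The sequences below cover 50 bp to either side of the summit, on the plus strand of the dm6 assembly, and were read from the RefSeq Release 6 genome. They are shown because they underlie 6 of the 8 strongest regions at ncRNA starts and the regions at 3 well-studied lncRNAs. Capitals mark a match to one of 8 words sought on both strands. Those words were TATCGATA (the DNA replication-related element), its core CGATA, GGTCACAC (from the motif bound by M1BP), GAGAG (GAGA factor), TATAAA (the TATA box), CACGTG (an E box), ACACAC and TGCGGATG. On the other strand GAGAG reads CTCTC, while TATAAA reads TTTATA and CGATA reads TATCG.
lncRNA:CR31044, chr3R:29214398-29214498: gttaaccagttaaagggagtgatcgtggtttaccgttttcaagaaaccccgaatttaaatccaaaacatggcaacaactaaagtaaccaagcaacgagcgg
lncRNA:CR46036, chr3R:17700541-17700641: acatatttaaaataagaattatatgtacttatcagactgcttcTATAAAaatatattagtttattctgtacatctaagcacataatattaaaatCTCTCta
asRNA:CR44429, chrX:15298432-15298532: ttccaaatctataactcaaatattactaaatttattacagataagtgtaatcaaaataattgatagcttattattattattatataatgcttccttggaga
lncRNA:CR43626, chr3L:3250174-3250274: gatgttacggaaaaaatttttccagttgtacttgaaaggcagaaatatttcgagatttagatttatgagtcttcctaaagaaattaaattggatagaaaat
lncRNA:CR31840, chr2L:14024028-14024128: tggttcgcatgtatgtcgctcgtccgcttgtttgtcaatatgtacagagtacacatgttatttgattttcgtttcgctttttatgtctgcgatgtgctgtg
lncRNA:CR42657, chrX:9687670-9687770: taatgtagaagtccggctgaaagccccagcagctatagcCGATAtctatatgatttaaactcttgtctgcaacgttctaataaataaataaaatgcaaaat
lncRNA:Hsromega, chr3R:21296243-21296343: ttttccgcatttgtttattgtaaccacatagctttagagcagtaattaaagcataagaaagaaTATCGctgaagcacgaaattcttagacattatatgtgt
lncRNA:flam, chrX:21631616-21631716: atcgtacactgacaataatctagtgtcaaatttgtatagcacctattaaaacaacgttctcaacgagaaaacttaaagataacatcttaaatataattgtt
lncRNA:roX1, chrX:3862440-3862540: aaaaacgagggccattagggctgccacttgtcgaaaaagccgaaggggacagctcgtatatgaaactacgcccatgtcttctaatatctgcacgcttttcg
The windows of lncRNA:CR46036, asRNA:CR44429 and lncRNA:CR43626 are rich in A and T, whereas that of lncRNA:CR31840 is more mixed. Their G and C content was 20.8%, 20.8%, 27.7% and 41.6% in that order. Of the 15 strongest regions at ncRNA starts, 11 held none of the 8 words in this window, as did 422 of all 683 (61.8%; exact 95% interval 58.0 to 65.4) and 58.1% of all pooled windows.

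Regions at ncRNA starts reached the authors' optimal list about as often as pooled regions in general. The optimal list holds the 5862 dm6 peaks kept by the authors after an irreproducible discovery rate (IDR) threshold, which compares replicates, and it coincides with the strongest regions of the pooled list. It held 142 of the 683 regions at ncRNA starts (20.8%; exact 95% interval 17.8 to 24.0), against 19.5% of all pooled regions. That share is near the background and is no result about ncRNA starts. It lay below the 32.7% (31.7 to 33.7) of regions at coding starts and above the 13.6% (13.1 to 14.1) of regions at no start. The same order held for signal. Regions at ncRNA starts had a median signal of 67.6, against 97.3 at coding starts and 60.1 at no start, in the unstated units of the authors' caller. Their median rank position was the 50.3rd percentile of the pooled list, against 67.7 at coding starts and 42.5 at no start. Intervals here cover counting error over regions only, since neighbouring regions are not independent and the read depth is unknown.

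The order of the 3 classes was the same in every library. From the list called on each replicate, the 5862 regions of highest signal were kept (the restricted list), and a pooled region counted as found if it overlapped a region of that list by at least 1 bp. Regions at ncRNA starts were found at 25.5% in replicate 1, 23.1% in replicate 2 and 25.2% in replicate 4. Coding-start regions were found at 39.7%, 39.9% and 42.9%, and regions at no start at 17.8%, 17.2% and 15.3%, in the same libraries. The 3 groups of values did not overlap. Regions at ncRNA starts averaged 24.6% ± 1.28 and coding-start regions 40.8% ± 1.82 (SD, n = 3 libraries), a difference of −16.2 ± 1.82 percentage points that was negative in 3 of 3 libraries. Regions at no start averaged 16.8% ± 1.31, so those at ncRNA starts were higher by 7.83 ± 1.96 points, again in 3 of 3 libraries. The exact two-sided permutation p was 0.25 for each difference, and 0.25 after adjustment over 3 tests, which is the smallest p that 3 paired libraries can give. The share over all pooled regions was not set beside these values per library. In the optimal list and in all 3 restricted lists together, ncRNA-start regions were near that share (20.8% against 19.5%, and 18.4% against 17.6%). The differences thus describe the order of the classes and are no result about ncRNA starts as such.

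**Figure D1:**
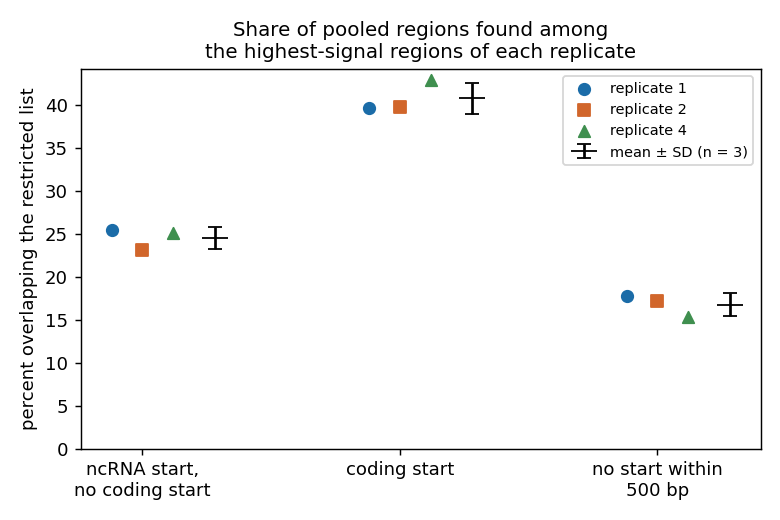
Percent of pooled regions that overlap the restricted list of each replicate (vertical axis), for regions at ncRNA starts with no coding start, regions at coding starts and regions at no start (horizontal axis). Coloured points are the 3 libraries and the black mark with bars is their mean ± SD; the ncRNA-start regions, at 23.1 to 25.5%, lie between the other classes in each library.

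Most regions at ncRNA starts found in every replicate were also optimal. Of the 683 regions, 126 (18.4%; 15.6 to 21.6) overlapped the restricted list of every replicate, against 31.4% at coding starts, 11.4% at no start and 17.6% of all pooled regions. That share too is near the background. Of the 142 optimal regions, 102 (71.8%) were found in every replicate, 28 in 2 replicates, 11 in 1 replicate and 1 in none. The last was the region at lncRNA:CR43431, whose pooled rank was 5591 and whose ranks in replicates 1, 2 and 4 were 7380, 10373 and 5987. The other 24 regions found in every replicate lay below the optimal list, and all 24 overlapped a stronger pooled region, so the replicate region they met may be that neighbour's. Of the 142 optimal regions, 10 overlapped a stronger pooled region too, and the same limit applies to them. Signal ranks followed each other between libraries much as elsewhere in the list. Over the 395 to 411 regions at ncRNA starts present in both lists of a pair, Spearman's rho averaged 0.802 ± 0.0154 (SD over 3 pairs of libraries, which share libraries), against 0.792 ± 0.00591 over all pooled regions.

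The strongest regions at ncRNA starts were shared by all libraries. The 15 with the highest signal carried pooled signals of 719 to 2215 and were all found in every replicate, with 926 as the lowest rank in any replicate. They were picked by pooled signal, and the pooled list was made from the same libraries, so this support is a description only. By annotation class, 13 stood at lncRNAs and 2 at asRNAs. Most of the genes are known by number only, and no role can be given for them. The summit lay upstream of the ncRNA start in 12 regions and downstream in 3. It fell outside protein-coding genes in 12 and in an intron in 3, each time of a gene on the opposite strand.

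The highest signal, 2215, belonged to lncRNA:CR44339 on arm 2R (chr2R:12984996-12985425). Its summit lay 159 bp from the lncRNA start on the upstream side and 4214 bp from the nearest coding start, that of Psc, which encodes a Polycomb group protein. It ranked 29 in the pooled list and 50, 66 and 17 in replicates 1, 2 and 4. lncRNA:CR31044 (chr3R:29214245-29214639) followed at a signal of 1725 and a pooled rank of 65. Its ranks were 76, 137 and 48 in the replicates, and its nearest coding start, 5724 bp away, was that of the translation elongation factor subunit gene eEF1gamma. These 2 regions stood well apart from any coding promoter and ranked within the top 137 in each library.

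A set of the strongest regions lay inside coding genes or beside them. lncRNA:CR46036 (chr3R:17700362-17700781), with a signal of 1469, had its summit in an intron of osa, which encodes a subunit of the Brahma chromatin remodelling complex. Its ranks were 144, 164 and 77 in replicates 1, 2 and 4. asRNA:CR44429 (chrX:15298249-15298696), with a signal of 1309, had its summit in an intron of gce, which encodes a juvenile hormone receptor. That summit was 527 bp from a gce start, just outside the 500 bp limit. The region ranked 157, 124 and 175. lncRNA:CR44409, with a signal of 788, had its summit in an intron of Dif, an NF-kappaB factor of the immune response. Its ranks were 442, 291 and 710. In each of these 3 cases the host gene runs on the other strand.

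Coding starts stood within 1000 bp of 4 of the 15 strongest summits, so these 4 cannot be assigned to the ncRNA alone. Besides asRNA:CR44429, they were Uhg4 (534 bp from the start of Boot), lncRNA:CR42657 (654 bp from nej, which encodes the histone acetyltransferase CBP) and lncRNA:CR45668 (627 bp from Act5C, which encodes a cytoplasmic actin). Uhg4 had a signal of 1113 with replicate ranks of 293, 202 and 206. lncRNA:CR42657 had a signal of 1092 with ranks of 218, 234 and 289. lncRNA:CR45668 had a signal of 719 with ranks of 563, 926 and 511. Replicate 2 gave the lowest of the 3 ranks for the last of them, whereas the other 2 were close between libraries.

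The remaining strong regions lay outside coding genes. Signals were 1202 at lncRNA:CR43626, 1118 at lncRNA:CR31840, 962 at asRNA:CR43469, 950 at lncRNA:CR44676, 873 at lncRNA:CR45595, 805 at lncRNA:CR45541 and 780 at lncRNA:CR45251. At lncRNA:CR31840 the summit lay 21 bp downstream of the lncRNA start, the closest of the 15. At lncRNA:CR45251 the nearest coding start was 14789 bp away, the farthest of the 15.

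**Figure D2:**
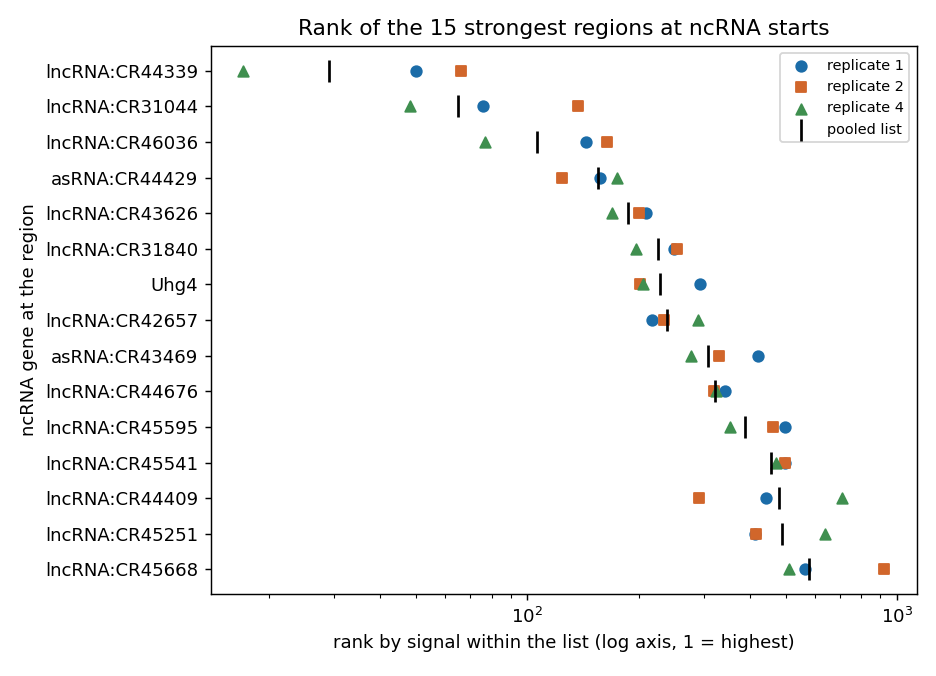
Rank by signal (horizontal log axis, 1 is the highest) of the 15 strongest regions at ncRNA starts, named by their gene (vertical axis), in replicates 1, 2 and 4 (coloured points) and in the pooled list (black ticks). All ranks are at or above position 926 of 5862, and those of lncRNA:CR44409 spread between 291 and 710.

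Just below the optimal list, the 5 strongest regions stood at lncRNA:CR45585, lncRNA:CR45641, lncRNA:CR45940, sncRNA:204 and lncRNA:CR44758. Their signals were 147 to 151, against 153 for the weakest optimal region at an ncRNA start. Pooled ranks ran from 5883 at lncRNA:CR45585 to 6058 at lncRNA:CR44758. Replicate support differed among them. lncRNA:CR45940, with its summit in an intron of nkd, a Wnt pathway antagonist, was the only 1 of the 5 found in every restricted list. Its replicate ranks were 1180, 1391 and 866. Those ranks are far above its pooled rank of 6018, and its interval overlaps a stronger pooled region.

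Classes of ncRNA contributed unevenly in number. Of the 683 regions, 530 stood at lncRNAs, 85 at asRNAs, 55 at entries of miRNA hairpins or mature arms and 13 at other ncRNAs. The optimal list held 120 of the lncRNA regions (22.6%; 19.1 to 26.4), 13 of the asRNA regions (15.3%; 8.40 to 24.7), 8 of the miRNA regions (14.5%; 6.50 to 26.7) and 1 of the others. These intervals overlap one another. By location, the optimal list held 98 of 424 regions outside protein-coding genes (23.1%; 19.2 to 27.4) and 43 of 200 in introns (21.5%; 16.0 to 27.8), but 1 of 59 in exons of coding genes (1.69%; 0.0429 to 9.09). Over all pooled regions the shares were 27.4% outside coding genes, 18.4% in introns and 10.5% in exons, and among regions at no start they were 14.6%, 16.0% and 3.35%. A low share in exons was thus common to these classes. That single exonic region belongs to lncRNA:CR43626 and lies in an exon of CG43389, with a signal of 207.

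Among asRNAs, the optimal regions lay upstream of the RNA start and often near a coding start. The summit was upstream in 12 of the 13 (92.3%; 64.0 to 99.8), against 37 of the 72 asRNA regions below the list (51.4%; 39.3 to 63.4). A coding start lay within 1000 bp of 8 of the 13, against 27 of the 72. Of these, asRNA:CR44429 and asRNA:CR43469 are among the 15 strongest regions. asRNA:CR45908, with its summit in an intron of CG1943, had a signal of 626 and replicate ranks of 796, 1049 and 604. asRNA:CR46044, with its summit in an intron of Septin2, a cytoskeletal GTPase, had a signal of 425. Its ranks were 1507, 1269 and 1634, and the Septin2 start lay 543 bp from the summit. The single downstream case was asRNA:CR45467, with its summit in an intron of Sec24AB. These counts were made after the values had been seen, and how far the nearby coding starts account for the position was not tested.

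The 8 optimal regions at miRNA entries included well-studied genes and numbered ones. The strongest, at mir-9377, had its summit in an intron of Tis11, an mRNA decay factor gene. Its signal was 698 and its ranks were 826, 869 and 446. mir-275 had a signal of 386 with its summit at −409 bp from the hairpin. For bantam (mir-ban), which promotes growth and blocks cell death, the signal was 304. Its summit lay 392 bp downstream of the entry for a mature arm. The ranks of bantam were 2668, 1913 and 3425 in replicates 1, 2 and 4. mir-34, a miRNA linked to ageing in the fly brain, had a signal of 175 and ranks of 4610, 7791 and 5155, so replicate 2 placed it outside its restricted list. The other 4 stood at mir-9378, mir-2499, mir-4968 and mir-2282. Summits lay upstream of the nearest hairpin or mature-arm entry in 3 of the 8, and 6 of the 8 were found in every replicate. The entries at mir-9377, mir-ban and mir-2499 were mature arms. Because the end of a hairpin or arm is no transcription start, these positions say nothing about the promoter. The single optimal region of the other classes stood at snoRNA:Or-ACA9, a small nucleolar RNA by its name, in an intron of AdamTS-A, with a signal of 215.

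Within the 500 bp window, optimal summits at ncRNA starts lay upstream somewhat more often than weaker ones, with a smaller gap than at coding starts. Of the 142 optimal summits, 87 (61.3%; 52.7 to 69.3) lay upstream of the nearest ncRNA start, at a median of −90 bp (quartiles −238 and 244). Of the 541 summits below the list, 48.1% (43.8 to 52.4) lay upstream, at a median of 17 bp. At lncRNAs, which held 120 of the 142 optimal regions, the shares were 59.2% (49.8 to 68.0) and 47.1% (42.2 to 52.0). Those lncRNA intervals overlap. With a window of 1000 bp, 51.9% of all optimal summits at ncRNA starts lay upstream. At coding starts 81.9% (80.5 to 83.3) of the optimal summits lay upstream, at a median of −104 bp (quartiles −193 and −30). Of the summits at coding starts below the list, 50.3% (49.0 to 51.5) lay upstream. The medians of the optimal classes are close, but the spread is wider at ncRNA starts, so the medians do not show a shared position. Within 200 bp of the start lay 39.4% of the optimal summits at ncRNA starts and 72.6% of those at coding starts. Beyond 300 bp lay 41.5% and 13.1% in the same order. Weaker summits at ncRNA starts had 42.0% within 200 bp and 40.3% beyond 300 bp, so the optimal ones were not nearer the start.

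The replicate lists gave the same picture when the rule was applied to each on its own. Among the restricted regions at ncRNA starts, 59.7%, 62.5% and 63.0% of summits lay upstream in replicates 1, 2 and 4, against 82.8%, 82.7% and 77.7% at coding starts. The mean was 61.8% ± 1.78 against 81.1% ± 2.91 (SD, n = 3), a difference of −19.3 ± 4.26 percentage points that was negative in 3 of 3 libraries. The exact two-sided permutation p was 0.25, the smallest possible, and 0.25 after adjustment over 3 tests. Among weaker regions, 47.0% ± 0.983 lay upstream at ncRNA starts and 49.3% ± 0.917 at coding starts.

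**Figure D3:**
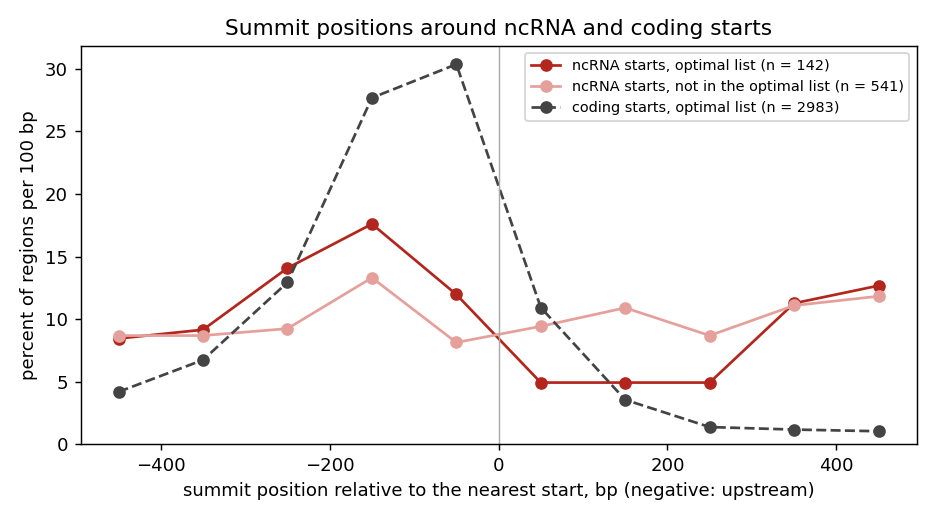
Position of the summit relative to the nearest start (horizontal axis, bp, negative values upstream) as the percent of regions per 100 bp (vertical axis), for optimal and weaker regions at ncRNA starts and for optimal regions at coding starts. The coding curve peaks just upstream of the start, at 30.4%, whereas the optimal ncRNA curve reaches 17.6% between 100 and 200 bp upstream and rises again to 12.7% at 400 to 500 bp downstream.

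The share of regions in the optimal list was similar in each 100 bp step from the ncRNA start. It was 20.2% (13.4 to 28.5) within 100 bp, 19.5% (13.7 to 26.4) over 100 and up to 200 bp, 22.0% (14.99 to 30.3) up to 300 bp, 20.9% (14.4 to 28.6) up to 400 bp and 21.7% (15.2 to 29.6) up to 500 bp. The intervals of these 5 bins overlap. The values were also close on both sides of the 500 bp limit. Within 50 bp inside it, 15 of 63 regions were optimal (23.8%), and within 50 bp outside it 16 of 63 were (25.4%). Farther out, among regions with no start within 500 bp, the optimal share was 19.2% (16.0 to 22.6) up to 1000 bp from an ncRNA start, 15.8% (13.5 to 18.3) up to 2000 bp and 13.0% (12.4 to 13.5) beyond 10000 bp. The values in the replicates moved the same way, from a mean of 23.4% ± 0.979 up to 1000 bp to 15.9% ± 1.44 beyond 10000 bp (SD, n = 3).

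**Figure D4:**
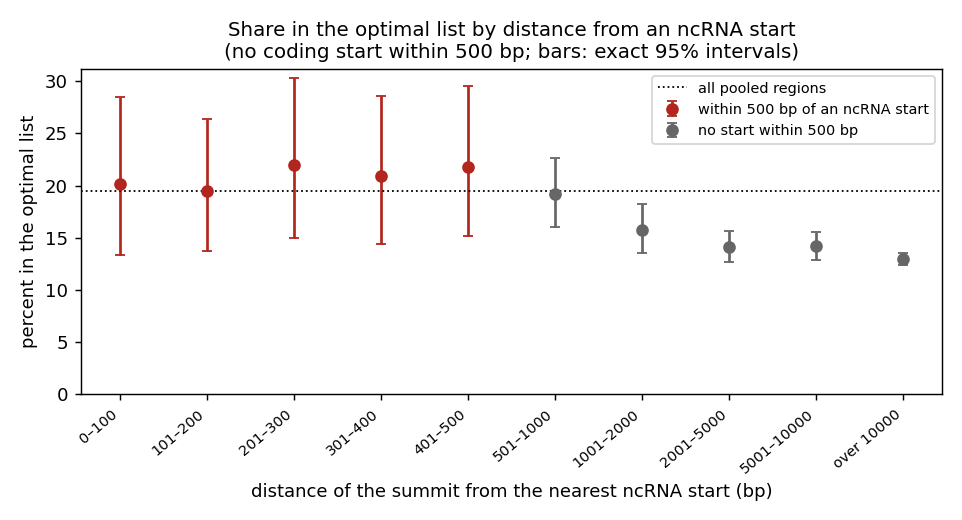
Percent of regions in the optimal list (vertical axis) by distance of the summit from the nearest ncRNA start (horizontal axis, bp), for regions with no coding start within 500 bp; points are shares, bars are exact 95% intervals, and the dotted line is the 19.5% of all pooled regions. The 5 bins inside 500 bp lie between 19.5% and 22.0%, and the share declines to 13.0% beyond 10000 bp.

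The optimal share of regions at ncRNA starts was 18.1 to 22.6% at every distance from coding starts, against 19.5% of all pooled regions. Every interval given below for ncRNA starts holds that 19.5%. The gaps to regions at no start thus describe the order of these classes and are no result about ncRNA starts as such. Their nearest coding start was at a median of 3119 bp, ranging between 503 and 59111 bp. With the nearest coding start between 2000 and 5000 bp away, 22.6% (17.0 to 29.1) of regions at ncRNA starts were optimal, against 13.3% (12.4 to 14.3) of regions at no start. Beyond 10000 bp the shares were 22.0% (14.6 to 31.0) and 11.7% (10.7 to 12.7). In the other 3 distance classes the intervals overlapped. The shares were 18.1% (11.3 to 26.8) and 15.9% (14.6 to 17.3) up to 1000 bp, 21.6% (15.1 to 29.4) and 15.03% (13.9 to 16.2) between 1000 and 2000 bp, and 18.3% (12.1 to 26.0) and 12.8% (11.8 to 13.9) between 5000 and 10000 bp. The replicates did not show the same order at every distance. Up to 1000 bp, the restricted lists of replicates 1, 2 and 4 held 18.1%, 20% and 21.0% of regions at ncRNA starts, against 20.7%, 21.8% and 19.2% of regions at no start, so the ncRNA share was the lower one in 2 of 3. Between 2000 and 5000 bp, the restricted lists of replicates 1, 2 and 4 held 28.1%, 27.1% and 27.6% of regions at ncRNA starts, against 17.6%, 17.0% and 15.3% of regions at no start. Beyond 10000 bp they held 24.8%, 16.5% and 23.9%, against 15.9%, 14.1% and 13.0%, so the gap was small in replicate 2.

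Both 8-letter words known from coding promoters were rare at ncRNA starts. TATCGATA occurred in 0 of the 683 windows, which allows a share of up to 0.439% by the limit of 3 counts and up to 0.539% by the exact 95% interval, against 3.29% at coding starts, 0.169% at no start and 1.11% of all pooled windows. GGTCACAC occurred in 1 window (0.146%), that of the region at mir-277, against 2.38% at coding starts, 0.209% at no start and 0.870% of all. CGATA occurred in 9.52% (7.42 to 11.97), against 20.3% at coding starts, 10.3% at no start and 13.3% of all. For these 3 words, the shares at ncRNA starts lay nearer to those at no start than to those at coding starts. The GAGA, E box and CA repeat words showed no such contrast. GAGAG occurred in 13.0% (10.6 to 15.8) of windows at ncRNA starts and in 11.98% of all, CACGTG in 1.17% and 1.37%, and ACACAC in 8.20% and 7.81%.

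Restricted to optimal regions, TATAAA occurred in 25 of 142 windows at ncRNA starts (17.6%; 11.7 to 24.9), against 21.3% at coding starts, 23.2% at no start and 22.0% of all optimal windows. In weaker regions at ncRNA starts it occurred in 9.80%. TGCGGATG, whose presence in these data was known when it was chosen, occurred in 3 of the 142 optimal windows (2.11%; 0.438 to 6.05), at lncRNA:CR43297, lncRNA:CR45440 and mir-2499, against 1.81% of all optimal windows. The median G and C content was 30.7% in optimal windows at ncRNA starts, against 33.7% in those at coding starts and 31.7% in those at no start. It was 42.6% over all 683 windows, so at ncRNA starts the optimal windows had both less G and C and more TATAAA. The same held at coding starts (41.6% over all windows, TATAAA in 14.1%) and at no start (41.6% and 13.0%). The pattern is therefore not particular to ncRNA starts. Across the 3 optimal classes the lowest content went with the lowest TATAAA share. The part of composition in the word counts was not tested.

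The same regions were also counted by gene. Of 2808 ncRNA genes, 853 (30.4%) had a pooled summit within 500 bp of a start, and 593 of them had one of the 683 regions. An optimal summit lay within 500 bp of 235 ncRNA genes (8.37%; 7.37 to 9.45), against 26.2% (25.5 to 26.9) of 13968 protein-coding genes and 22.2% of all 17796 genes. The share was 17.5% (14.3 to 21.1) for the 502 ncRNA genes with a coding start within 500 bp of their own, and 6.37% (5.41 to 7.45) for the 2306 without. By class, 8.66% of lncRNA, 11.1% of asRNA, 3.08% of miRNA and 2.15% of other ncRNA genes had an optimal summit. Most genes with a region had 1. Counting every ncRNA gene with a start within 500 bp of a summit, so that 1 region can count for several genes, 487 had 1 region, 99 had 2, and lncRNA:CR43650 and lncRNA:iab8 had 4 each. Regions also came in groups, since 244 of the 683 had another of them within 2000 bp of the summit.

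Several neighbouring groups were optimal together. lncRNA:CR44867 and lncRNA:CR44868 held 3 optimal regions with signals of 711, 524 and 519. Each had its summit in an intron of beat-Ib, which runs on the strand opposite to these lncRNAs. Their summits lay on arm 2L at positions 15911268, 15912215 and 15913035. lncRNA:CR45251 had a further optimal region with a signal of 548, 405 bp downstream of the start. At lncRNA:CR45639 a summit with a signal of 438 lay within 500 bp of the starts of 4 lncRNA genes, so it cannot be assigned to any of them. A second optimal summit there, with a signal of 230, lay within 500 bp of the starts of 3 of these genes. Its region overlapped the same replicate regions and stands for no separate support.

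A list of ncRNA genes with known roles was examined by gene. Of 65 listed symbols, 28 matched an ncRNA gene. A region at the ncRNA start only was present at 10 of these, and at 5 (17.9%) it was optimal, against 4.81% of all 2808 ncRNA genes. The list was made by hand with earlier results known, so nothing is read from that difference. Uhg2, Uhg5 and Uhg8 are hosts of small nucleolar RNAs. Their pooled regions lay within 500 bp of both their own start and a coding start. Each of these genes had an optimal region of this kind, with highest signals of 490, 203 and 576 in that order. Another 15 genes had no pooled region within 500 bp, among them roX2, bxd, let7C and both 7SL RNA genes of the signal recognition particle. Several of the listed symbols are alternative spellings. Where no region is listed, the gene had none among the 30000 pooled regions, whose depth is unknown.

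Among the listed genes with a region at the ncRNA start only, Hsromega and flam had the highest signals after Uhg4. The region at Hsromega had a signal of 579 and ranks of 991, 883 and 792 in replicates 1, 2 and 4. A second region there, with a signal of 70.9 and a pooled rank of 13996, overlapped the same replicate regions and stands for no separate support. The region at flam had a signal of 315 and ranks of 1838, 3309 and 2372. Both were found in every restricted list. The snoRNA hosts Uhg1 and Uhg3 had weaker optimal regions, with signals of 170 and 167. Uhg1 was found in 1 restricted list and Uhg3 in 2, so their support was partial.

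roX1 had a region that did not reach the optimal list. Its signal was 87.5, at pooled rank 10958, and its ranks were 6848 in replicate 1, 7034 in replicate 2 and 23606 in replicate 4. Replicate 4 placed it far below the others. The strongest of 4 regions at iab8, a bithorax complex RNA that carries a miRNA, had a signal of 134 and ranks of 10633, 16661 and 5919. Regions at yar (signal 97.0), Vinr (91.9) and RNaseP:RNA (51.9), the RNA component of the enzyme that trims transfer RNA precursors, also lay below the list. None of these 5 was found in any restricted replicate list.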

How the data were processed

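All 5 lists on dm6 were used and those on dm3 were not. Per the labels, the authors called regions on each of 3 replicates and on the pooled libraries, as input for IDR, and deposited an optimal list. The deposited values used are the caller's signal, whose scale is not given in the sources used here, and the summit position; signal was ranked within a list only. The caller is not given in the sources used here. Depth is unknown, since the lists hold no reads.

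The rule used Ensembl BDGP6 release 115, without transposable elements. The 481 entries for mature miRNA arms took the symbol of their hairpin and were not counted as genes of their own. Their own 5′ ends were kept as starts. List coordinates lay within the Release 6 chromosome lengths. Overlap needed 1 bp. Intervals are exact (Clopper-Pearson, 95%); library differences used an exact paired sign permutation. Named regions were the 15 strongest optimal ones, the 5 strongest below the list, and a list of known ncRNAs; other regions were named with their values known. The regions and lists were chosen with earlier results of these data known. Classification and overlap steps were tested on simulated data. Alternatives are given at the end. The tools were matplotlib 3.10.9, pandas 2.3.3, scipy 1.17.1, numpy 2.4.6 and Python 3.11.15.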

Additional observations from a re-analysis of the deposited data

How the results depend on the processing

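No paired analysis was possible because all libraries belong to 1 group, so no groups share replicate numbers; the exact tests pair classes of regions within a library. The difference from coding-start regions stayed negative under every alternative run, between −18.8 points (250 bp window) and −8.31 points (whole replicate lists), and between −17.2 and −15.5 points with a replicate left out. With a 250 bp window, the median percentile was 56.6, and 480 ncRNA genes had a pooled region and 125 an optimal one. With a 1000 bp window, 51.9% of optimal summits lay upstream and 404 ncRNA genes had an optimal peak. In the upper part of the optimal list (2931 peaks), the share of regions was 11.3% and 139 ncRNA genes had a peak. Support in every replicate was 14.2% when 50% of the region had to be covered and 48.9% with the whole replicate lists. The median of each region's mean percentile over the replicate lists was 40.004 (39.7 to 44.2 with a replicate left out), where a region with no overlap counts as lowest. Within single replicate lists the median was 55.8, 51.2 and 53.5, above the pooled value, so the direction of this shift depends on the averaging. Alternatives for miRNA entries and for the words were chosen after seeing the data: GGTCACAC was at 0 with the 250 bp window or without miRNA entries, and TATCGATA at 0.140% with 5′ ends of genes only. The causes of these shifts were not tested. Unknown read depth, a single group and the absence of an analysed control limit all values.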
